A study of Mus musculus with 5 samples.

Results

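The genes of de novo lipogenesis, the cytosolic route that makes fatty acids from acetyl-CoA, were followed in RNA of 5 mouse livers. The 10 genes were chosen by name from 33589 rows of the expression table, as the enzymes of the route (Acly, Acss2, Acaca, Acacb, Fasn, Me1), its main transcription factors (Srebf1, Mlxipl) and the lipogenic genes Thrsp and Pnpla3. The 2 control livers carried a floxed Heg1 gene (genotype Hegfl/fl in the labels) and no Cre. The 3 knockout livers carried the same floxed gene with Lyve1-Cre. Every mouse was male, aged 6 weeks and on a high-fat diet for 4 weeks by the labels, so the floxed gene and the diet were shared by both groups. The sample labels give the tissue as liver, whereas the title of the study speaks of hepatocytes. Lyve1 drives Cre in lymphatic and liver sinusoidal endothelial cells, whereas the lipogenic genes are chiefly hepatocyte genes. The comparison asks how the liver's lipogenic transcripts differ on this diet when Heg1, which encodes an endothelial transmembrane receptor, is targeted in Lyve1-expressing cells.

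In lipogenesis, ATP citrate lyase (Acly) splits cytosolic citrate into acetyl-CoA, and acetyl-CoA synthetase (Acss2) makes acetyl-CoA from acetate. Acetyl-CoA carboxylase then makes malonyl-CoA, in the cytosol by the product of Acaca and at the mitochondrial surface by that of Acacb, where malonyl-CoA inhibits carnitine palmitoyltransferase and so the entry of fatty acids into oxidation. Fatty acid synthase (Fasn) builds palmitate from malonyl-CoA with NADPH, part of which comes from malic enzyme (Me1). In liver the enzymes are transcribed under SREBP1 (Srebf1), which responds to insulin, and ChREBP (Mlxipl), which responds to carbohydrate.

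The bases just upstream of a start site are shown for Fasn, the terminal enzyme, and for Srebf1 and Mlxipl, the transcription factors whose levels are set against it. They are RefSeq sequences on GRCm38.p6, written 5′ to 3′ on the strand of the gene, and none of them lies in an annotated exon. All 10 genes were found in that set, with 14 start sites between them, and positions are counted back from -1 at the base before the start. Capitals mark matches on either strand to CCAAT (the NF-Y box), GGGCGG (the Sp1 box), CACGTG (the E-box), TCACNCCAC (the core of an SREBP site) or TCACCCGAG, the last of which was chosen after the sequences had been read.
Fasn, chr11:120824548-120824697, minus strand: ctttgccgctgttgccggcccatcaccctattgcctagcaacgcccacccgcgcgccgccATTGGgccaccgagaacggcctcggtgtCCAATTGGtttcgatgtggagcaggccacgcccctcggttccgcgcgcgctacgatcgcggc
Srebf1, chr11:60210472-60210621, minus strand: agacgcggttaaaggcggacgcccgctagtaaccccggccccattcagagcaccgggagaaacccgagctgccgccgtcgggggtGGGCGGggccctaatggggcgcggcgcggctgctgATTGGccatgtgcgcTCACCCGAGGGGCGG
Mlxipl, chr5:135089740-135089889, plus strand: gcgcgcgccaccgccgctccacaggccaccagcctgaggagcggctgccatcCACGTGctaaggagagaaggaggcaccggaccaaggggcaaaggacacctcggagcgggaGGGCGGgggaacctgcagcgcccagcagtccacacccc
Mlxipl, second start site, chr5:135106741-135106890, plus strand: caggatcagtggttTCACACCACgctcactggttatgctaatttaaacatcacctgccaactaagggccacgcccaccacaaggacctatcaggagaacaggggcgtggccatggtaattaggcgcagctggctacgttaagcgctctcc
Within 250 bases upstream, CCAAT was found for 8 of the 10 genes and 9 of the 14 start sites, against 33.8% of all 32851 windows of that length. In Fasn, matches on opposite strands at -62 to -58 and -59 to -55 overlapped. GGGCGG was found for 6 genes and 7 start sites, against 32.7% of all windows. The E-box CACGTG (6.02% of windows) and the SREBP core (1.05%) were each found at 1 start site, both of Mlxipl, the E-box at -98 to -93 of the first and the core at -136 to -128 of the second. The letters TCACCCGAG stood at -15 to -7 of the Srebf1 start site shown, directly beside a GGGCGG box, and at -31 to -23 of Acss2. They were found in 43 windows in all (0.131%). The Srebf1 start site shown lies inside the annotated gene, and the other Srebf1 start sites did not have these letters. The windows searched, those of the members and all others, were not limited to bases outside annotated exons. Some start sites, among them those with the CCAAT matches of Acacb and Me1, lie inside the annotated gene. In Thrsp and Acss2 the CCAAT matches, and TCACCCGAG of Acss2, lie nearer the start than the longest stretch free of annotated exons. A match of letters does not show that a factor binds there.

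The values are FPKM (fragments per kilobase of transcript, scaled to the fragments of the library), and sequencing depth is unknown. FPKM sums lay between 797692 and 820498 per library, with 10614 to 10945 genes at 1 FPKM or more. Hepatocyte identity was clear, with Alb between 37676 and 51017 FPKM. Of 8 adipocyte markers, Adipoq, Plin1, Lep and Retn were listed at 0 in all 5 livers. The sum of the 8 was 4.52 and 4.99 FPKM in controls against 5.30, 6.05 and 5.86 FPKM in the 3 knockouts, most of it Adrb3 (3.96 and 4.19 FPKM in controls against 4.59, 5.19 and 4.73 FPKM in the 3 knockouts), with Trarg1 and Cidea at 0.20 FPKM or less. Of 5 muscle markers, Ckm, Acta1, Myh4 and Tnnt3 were listed at 0 in all 5 livers, and Actc1 was at 0.07 FPKM in control 2 only. Both sets were looked at because fat and muscle also express Acacb and other lipogenic genes. The part of other tissue in the lipogenic values was not tested. Summed erythrocyte markers were 1329 FPKM in knockout 1 and between 136 and 244 FPKM in the other livers. The targeted gene did not separate the groups: Heg1 was at 0.48 and 0.35 FPKM in controls against 0.45, 0.43 and 0.50 FPKM in the 3 knockouts, a whole-gene value in whole liver that checks the labels only weakly. Nothing in the labels says that the libraries come from separate animals, so the SDs and p-values refer to spread among libraries, which may be technical. In whole liver, fewer cells of a type and less RNA per cell cannot be told apart.

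None of the 10 genes passed the test for a difference between genotypes. Acacb, the carboxylase of the mitochondrial surface, had a knockout mean 1.95 times that of controls and was the 1 gene whose groups did not overlap. Fasn and Acss2 had higher means and Srebf1 a lower mean in knockouts, each with overlapping groups and a value that rested on single livers. For Acaca, Acly and Mlxipl the log2 fold changes lay between -0.10 and 0.11. With limma on log2(FPKM + 1) and Benjamini-Hochberg adjustment, 0 of the 9 members that passed the filter of 1 mean FPKM were called, as were 0 (0%) of all 10820 genes tested. An unadjusted p below 0.05 was reached by 757 genes, 572 of them higher and 185 lower in knockouts, and Acacb was the 1 member among them. Median-of-ratios scaling turned the split over all genes to 273 higher and 392 lower. By fold change 5 of the 9 members were higher and 4 lower, against 64.2% of all genes higher. The share over all genes was 48.5% after median-of-ratios scaling, under which the count of members stayed at 5 and 4. The median log2 fold change of the members was 0.09, beside 0.06 for all genes, and was -0.17 without control 1 and -0.13 without knockout 3. FPKM did not overlap between groups for 1 member, which lay above the controls, against 25.3% of all genes, 18.9% with the knockouts above and 6.38% with the knockouts below.

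**Figure D1:**
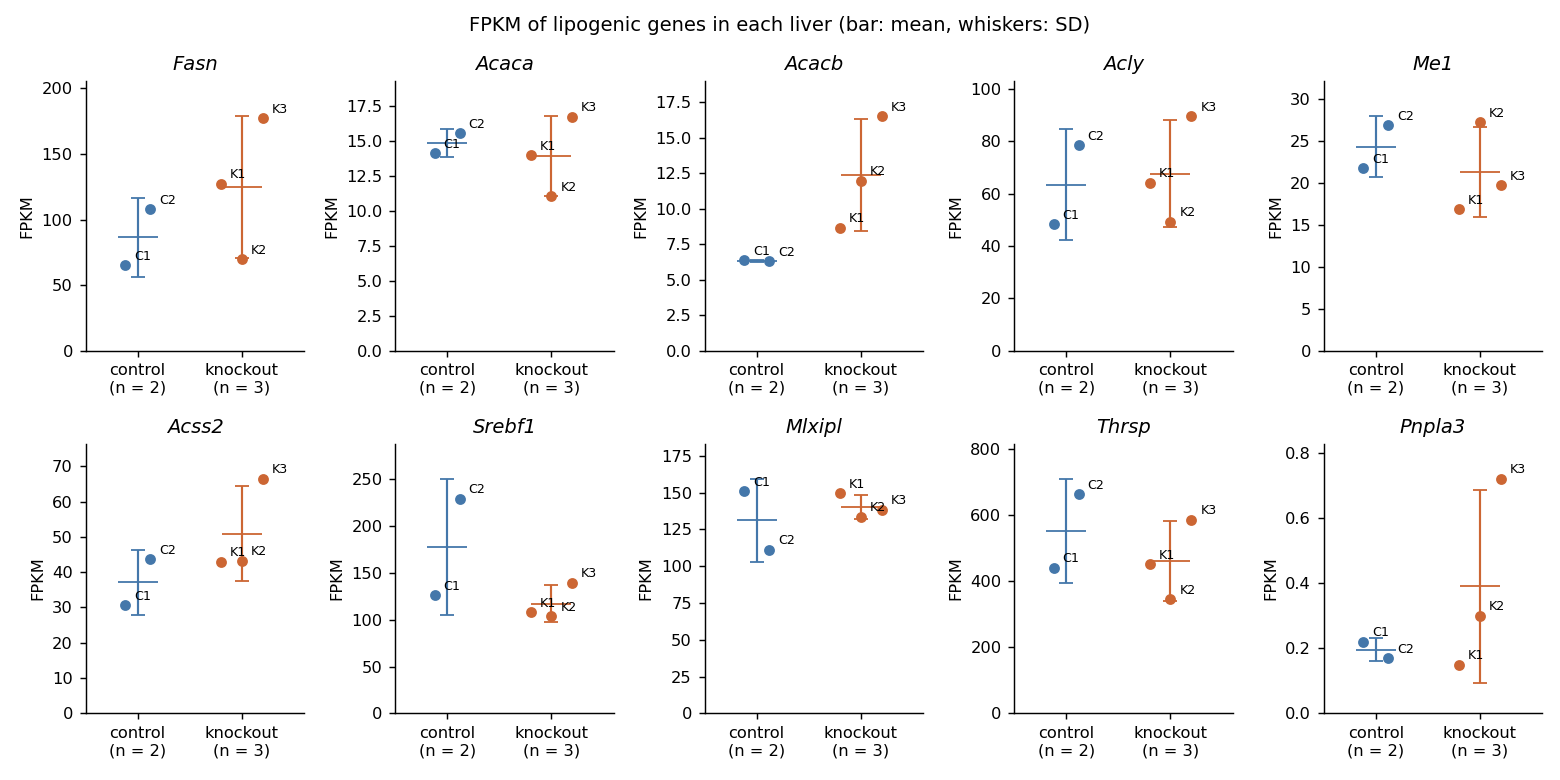
FPKM of the 10 genes in each liver, with controls (C1, C2, blue) and knockouts (K1 to K3, orange), bars at the group mean and whiskers of 1 SD. Only in the Acacb panel do the 3 knockouts (8.66 to 16.52 FPKM) all lie above both controls (6.29 and 6.38 FPKM).

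**Figure D2:**
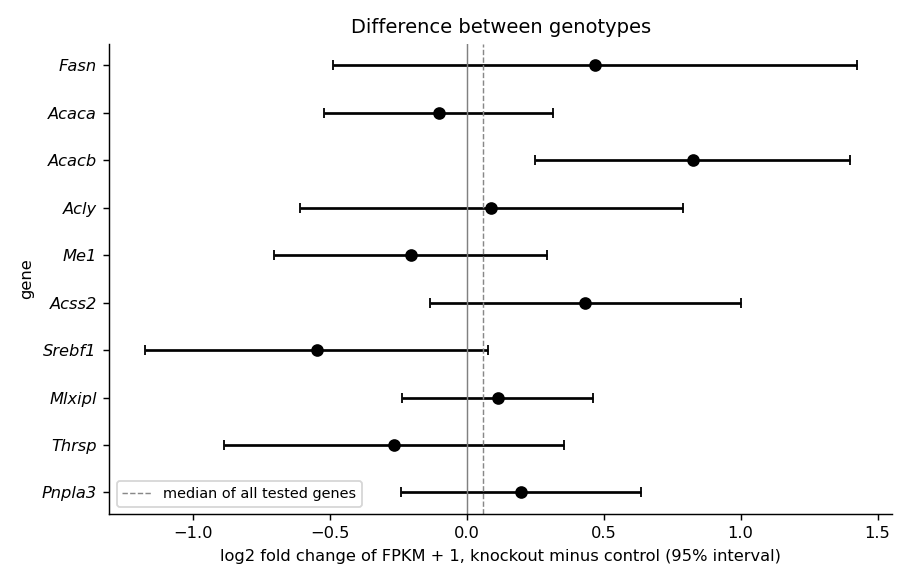
Log2 fold change of FPKM + 1, knockout minus control, with its 95% interval for each of the 10 genes, and the median of all tested genes as a dashed line. The interval of Acacb (0.25 to 1.40) lies above 0 and the other 9 intervals include 0.

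The clearest separation was that of the mitochondrial carboxylase. Acacb (ENSMUSG00000042010.16, chromosome 5, 114146535 to 114250761, plus strand, mm10) had 6.38 and 6.29 FPKM in controls against 8.66, 11.97 and 16.52 FPKM in the 3 knockouts. The 2 controls were almost equal, every knockout lay above them, and the range among the knockouts (0.86 on the log2 scale) was slightly larger than the difference between the groups. The mean was 6.34 ± 0.064 FPKM in the control livers (SD, n = 2) and 12.4 ± 3.95 FPKM in the 3 knockouts (SD, n = 3). The log2 fold change was 0.83 (SE 0.24), with an unadjusted p of 0.0122 and a limma adjusted p of 0.70. The summed adipocyte markers, low as they were, also lay above the controls in every knockout, with Adipoq, Plin1, Lep and Retn at 0. Leaving out 1 library kept the log2 fold change of Acacb between 0.61 (without knockout 3) and 1.04 (without knockout 1), and the adjusted p of these and all other settings lay between 0.446 and 0.914.

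Its cytosolic counterpart did not share this. Acaca (ENSMUSG00000020532.18, chromosome 11, 84129672 to 84401651, plus strand) had 14.13 and 15.55 FPKM in controls against 13.99, 11.04 and 16.74 FPKM in the 3 knockouts. The controls lay inside the range of the knockouts. The log2 fold change was -0.10 (SE 0.17, 95% interval from -0.52 to 0.32, limma adjusted p = 0.894), and it was 0.04 without knockout 2. Within each liver the ratio of Acaca to Acacb was 2.21 and 2.47 in controls and 1.62, 0.92 and 1.01 in knockouts, lower in every knockout than in either control. FPKM are per length, so the levels of both genes can be compared, and the ratio does not depend on the scaling between libraries.

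Fasn, which encodes the synthase itself (ENSMUSG00000025153.9, chromosome 11, 120805846 to 120824547, minus strand), had 65.25 and 107.79 FPKM in controls against 127.39, 69.71 and 177.40 FPKM in the 3 knockouts. Knockouts 1 and 3 were above both controls and knockout 2 was close to control 1. The means were 86.5 ± 30.1 and 124.8 ± 53.9 FPKM. On the log2 scale the difference was 0.47 (SE 0.40, 95% interval from -0.49 to 1.42, limma adjusted p = 0.805). This value rested on single libraries, being 0.11 without control 1, 0.17 without knockout 3, 0.83 without control 2 and 0.83 without knockout 2.

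The genes of the 2 sources of acetyl-CoA were both lowest in control 1 and highest in knockout 3. Acly (ENSMUSG00000020917.17, chromosome 11, 100476353 to 100528000, minus strand) had 48.33 and 78.43 FPKM in controls against 64.17, 49.17 and 89.51 FPKM in the 3 knockouts. Both groups covered almost the same range, and the log2 fold change of 0.09 (SE 0.29, 95% interval from -0.61 to 0.79, limma adjusted p = 0.951) changed sign to -0.25 without control 1 and to -0.13 without knockout 3. Acss2 (ENSMUSG00000027605.18, chromosome 2, 155517948 to 155585724, plus strand) had 30.69 and 43.64 FPKM in controls against 42.97, 43.20 and 66.41 FPKM in the 3 knockouts. Control 1 was lowest, knockout 3 highest, and the other 3 livers were within 0.67 FPKM of each other. Its log2 fold change was 0.43 (SE 0.24, 95% interval from -0.13 to 1.001, limma adjusted p = 0.731). Leaving out control 1 gave 0.19, leaving out knockout 3 gave 0.23 and leaving out control 2 gave 0.68. Exons of Acss2 share 3.89% of their bases with Gss on the other strand (32.7 to 43.9 FPKM), and the labels do not state whether reads were counted by strand.

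Malic enzyme went with neither group. Me1 (ENSMUSG00000032418.15, chromosome 9, 86581371 to 86695953, minus strand) had 21.74 and 26.84 FPKM in controls against 16.85, 27.17 and 19.70 FPKM in the 3 knockouts. Knockouts 1 and 3, which had the most Fasn of the 5 livers, had the least Me1. Its log2 fold change was -0.20 (SE 0.21, limma adjusted p = 0.829), -0.39 without knockout 2 and -0.06 without knockout 1 or control 2. Added up, the 6 enzymes came to 186.5 and 278.5 FPKM in controls against 274.0, 212.3 and 386.3 FPKM in the 3 knockouts, with control 2 above 2 of the 3 knockouts.

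Among the transcription factors Srebf1 had the lower mean in knockouts. Srebf1 (ENSMUSG00000020538.15, chromosome 11, 60199089 to 60222581, minus strand) had 126.00 and 228.78 FPKM in controls against 107.94, 103.38 and 139.27 FPKM in the 3 knockouts. Control 2 stood far above the other 4 livers, and knockout 3 was above control 1. The means were 177.4 ± 72.7 and 116.9 ± 19.5 FPKM, with a log2 fold change of -0.55 (SE 0.26, 95% interval from -1.17 to 0.08) and a limma adjusted p of 0.718. Without control 2 the log2 fold change was -0.12, and without control 1 it was -0.98 (unadjusted p = 0.0031, limma adjusted p = 0.551). Srebf1 has several start sites, from which the SREBP-1a and SREBP-1c forms arise, and a value per gene does not tell them apart.

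Mlxipl, the gene of ChREBP (ENSMUSG00000005373.13, chromosome 5, 135089890 to 135138382, plus strand), was the steadiest of the genes. It had 151.11 and 111.28 FPKM in controls against 149.51, 133.64 and 138.38 FPKM in the 3 knockouts. All knockouts lay between the 2 controls. The log2 fold change was 0.11 (SE 0.15, 95% interval from -0.24 to 0.46, limma adjusted p = 0.864), 0.33 without control 1 and -0.11 without control 2. Mlxipl too has more than 1 start site, and a value per gene does not tell the transcripts of each apart.

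Thrsp encodes the Spot 14 protein, a small lipogenic protein that acts with acetyl-CoA carboxylase and whose gene responds to thyroid hormone, carbohydrate and SREBP1. Thrsp (ENSMUSG00000035686.8, chromosome 7, 97412938 to 97417730, minus strand) was the most abundant member, at 441.64 and 664.44 FPKM in controls against 451.42, 345.37 and 586.43 FPKM in the 3 knockouts. Control 2 was highest and knockout 2 lowest, with the groups overlapping. Its log2 fold change was -0.27 (SE 0.26, 95% interval from -0.89 to 0.35, limma adjusted p = 0.826) and turned to 0.03 without control 2. Pnpla3, a lipid droplet acyl hydrolase and SREBP1 target (ENSMUSG00000041653.5, chromosome 15, 84167837 to 84187236, plus strand), was close to undetected, at 0.22 and 0.17 FPKM in controls against 0.15, 0.30 and 0.72 FPKM in the 3 knockouts. Knockout 3 alone stood apart. It lay below the filter and was read from a fit with a filter of 0.1 mean FPKM, where the log2 fold change of FPKM + 1 was 0.20 (SE 0.18, limma adjusted p = 0.843), a scale that understates the change of so low a gene.

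Libraries of one genotype differed in these genes more than they usually did in other genes, a spread that may be technical. The SD within groups of log2(FPKM + 1) was above the median of all tested genes (0.15) in all 9 members tested, with a median of 0.35. For Fasn it was 0.63, larger than in 98.2% of tested genes, for Acly 0.45 (95.2%), for Srebf1 0.40 (93.5%) and for Thrsp 0.39 (93.4%). Mlxipl, at 0.19, was above only 65.5% of genes. On this scale the added 1 shrinks the SD of genes of low FPKM, and the genes compared were not matched by level. Between the 2 controls Srebf1 differed by 0.86 on the log2 scale, Fasn by 0.72 and Acly by 0.69, and among the 3 knockouts Fasn spanned 1.34.

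**Figure D3:**
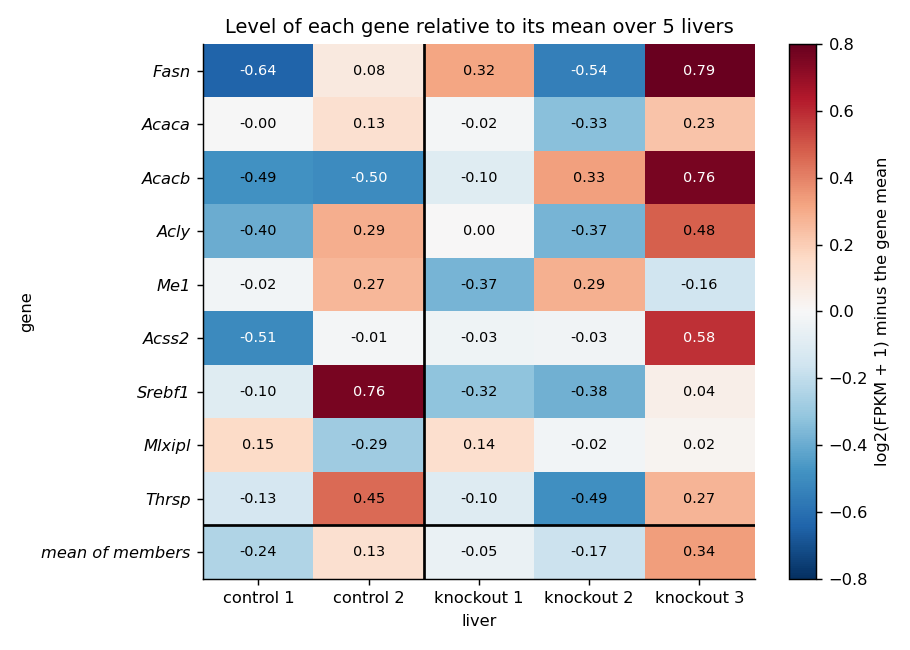
Level of each gene in each liver, as log2(FPKM + 1) minus the gene's mean over the 5 livers, for the 9 genes above the filter and for their mean (bottom row), with controls left of the vertical line. The mean is highest in knockout 3 (0.34) and control 2 (0.13) and lowest in control 1 (-0.24) and knockout 2 (-0.17).

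The order of the livers was shared in part by several genes. Fasn, Acly, Acaca and Thrsp all had knockout 3 and control 2 above knockout 2, and the mean of the 9 genes was highest in knockout 3 and next in control 2, so 1 liver of each genotype led. Knockout 3 was highest for 5 of the 9 genes. As a measure of likeness, the root mean square difference between centred log2 profiles over the 5 livers was 0.18 for Acaca with Thrsp and for Acly with Thrsp, and 0.20 for Srebf1 with Thrsp. At the other end it was 0.75 for Acacb with Srebf1 and 0.70 for Fasn with Me1. Outside the set, the 5 tested genes with the profile most like that of Fasn were Pmvk (0.12), Fdps (0.15), Ccdc73 (0.16), Ccdc62 (0.17) and Kifc3 (0.18). Pmvk, for example, had 12.75 and 18.84 FPKM in controls against 21.89, 14.48 and 30.94 FPKM in the 3 knockouts. The 5 most like the mean of the members were Gosr2 (0.0095), Tcf20 (0.022), Paox (0.037), Cfap126 (0.039) and Srfbp1 (0.039). With 5 livers a like profile is a description only.

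Food intake before collection and the hour of collection, to which lipogenic genes respond in liver, are not given in the labels. Igfbp1, a fasting-induced and insulin-repressed gene, had 51.3 and 25.3 FPKM in controls against 41.1, 20.0 and 7.29 FPKM in the 3 knockouts, lowest in the liver with the most Fasn. Pck1, the gluconeogenic carboxykinase, had 1100 and 1066 FPKM in controls against 965, 962 and 679 FPKM in the 3 knockouts, and was lowest in knockout 3 too. Of the 8 fasting genes tested 7 had lower means in knockouts (median log2 fold change -0.36), with none called and 2 (G6pc1, lower, and Cpt1a, higher) at an unadjusted p below 0.05. Of the 11 clock genes tested 8 were higher (median 0.14), with none called and none at an unadjusted p below 0.05. Over all genes 64.2% were higher, the share to set beside the counts of fasting, clock and cell type genes by direction. Summed Kupffer cell markers were lowest in control 1 (130 FPKM, against 177 to 227 FPKM in the other livers), which also had the least Fasn, Acly and Acss2. The 6 Kupffer markers had higher means in knockouts, but 5 of the 6 had lower means without control 1. Summed cholangiocyte markers were 29.7 and 40.7 FPKM in controls against 72.6, 51.3 and 55.3 FPKM in the 3 knockouts, with 3 of 3 tested markers higher on average. Most of that sum was Spp1, at 25.95 and 38.38 FPKM in controls against 66.42, 47.79 and 50.42 FPKM in the 3 knockouts (unadjusted p = 0.00907, limma adjusted p = 0.70). Of 7 periportal hepatocyte markers 5 had lower means in knockouts, and Etnppl lay wholly below the controls, at 35.45 and 43.41 FPKM in controls against 22.77, 29.76 and 21.10 FPKM in the 3 knockouts (unadjusted p = 0.00684, limma adjusted p = 0.689). Of 7 pericentral markers 5 had higher means. Summed sinusoidal endothelial markers (123 to 170 FPKM) and stellate cell markers (97.5 to 148 FPKM) overlapped between groups. The part of feeding, clock or cell mixture in the lipogenic values was not tested.

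Within livers, some ratios between members separated the genotypes where the genes themselves did not. Of the 36 pairs of members above the filter, 15 had FPKM ratios that did not overlap between groups, against 22.8% of all pairs of tested genes. Among those 15, 6 held Acacb, whose own FPKM already separated the groups, so these 6 partly repeat its difference. Pairs share genes and are not independent, and those described here were picked after their values were seen. The ratio of Fasn to Srebf1 was 0.52 and 0.47 in controls and 1.18, 0.67 and 1.27 in knockouts. Per unit of Srebf1 transcript, every knockout therefore had more Fasn transcript than either control. Acss2 to Srebf1 gave 0.24 and 0.19 in controls and 0.40, 0.42 and 0.48 in knockouts. Acly to Thrsp was tighter, at 0.109 and 0.118 in controls and 0.142, 0.142 and 0.153 in knockouts. By contrast the ratio of Fasn to Acaca, the 2 enzymes that act in sequence in the cytosol, overlapped between groups (4.62 and 6.93 in controls, 9.11, 6.31 and 10.6 in knockouts).

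**Figure D4:**
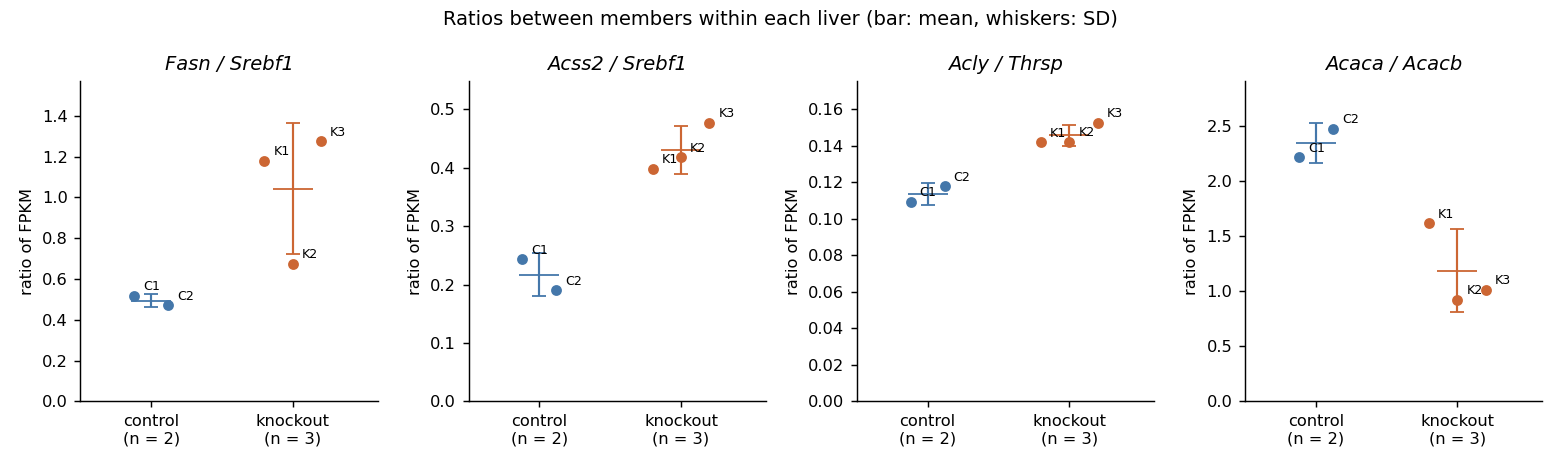
Ratio of FPKM between 2 members within each liver, for 4 pairs chosen after their values were seen, with bars at the group mean and whiskers of 1 SD. Fasn / Srebf1, Acss2 / Srebf1 and Acly / Thrsp are above both controls in all 3 knockouts, and Acaca / Acacb is below both.

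Genes that feed carbon and NADPH into lipogenesis were mixed. Of 15 tested, 6 had higher and 9 lower means in knockouts (4 and 11 after median-of-ratios scaling). Over all genes 64.2% were higher (48.5% after that scaling). None was called and 1, Pklr, had an unadjusted p below 0.05, and the median log2 fold change of -0.08 turned to 0.03 without control 2. Pklr, the liver pyruvate kinase and a ChREBP target, had 326 and 379 FPKM in controls against 233, 237 and 277 FPKM in the 3 knockouts (log2 fold change -0.50, SE 0.12, limma adjusted p = 0.675). Slc25a1, the mitochondrial citrate carrier that supplies Acly, lay on the other side, at 102.84 and 116.04 FPKM in controls against 125.1, 121.9 and 145.6 FPKM in the 3 knockouts. G6pdx, which makes NADPH in the pentose phosphate pathway, was low, at 1.53 and 2.18 FPKM in controls against 2.29, 2.23 and 3.36 FPKM in the 3 knockouts. Pklr and Slc25a1 kept their sign under the 16 alternatives tried. Over the list, 3 genes lay wholly above the controls and 3 wholly below, beside the 18.9% and 6.38% of all genes.

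Of 11 tested genes among ChREBP's partner and targets, 9 had lower means in knockouts (median -0.18). The partner, Mlx, was not lower, at 25.08 and 24.85 FPKM in controls against 25.63, 30.35 and 29.76 FPKM in the 3 knockouts. None of the 11 was called and 2, G6pc1 and Pklr, had an unadjusted p below 0.05. G6pc1 was also counted among the fasting genes, and Pklr among the genes that feed carbon and NADPH into lipogenesis. Of the 11 genes, 2 lay wholly above the controls and 5 wholly below, beside 18.9% and 6.38% of all genes. G6pc1, the catalytic subunit of glucose-6-phosphatase, had the largest log2 fold change of these 11 (-1.86, SE 0.38, limma adjusted p = 0.675), with 166.5 and 244.6 FPKM in controls against 89.0, 54.1 and 33.9 FPKM in the 3 knockouts. Txnip, a glucose-responsive arrestin, was at 46.7 and 33.9 FPKM in controls against 33.4, 28.9 and 29.4 FPKM in the 3 knockouts. The SREBP1c targets outside the set went the other way in 8 of 10 genes (median 0.50), beside 64.2% of all genes higher. Again none was called, and 3 had an unadjusted p below 0.05. Among these the fatty acid desaturases Fads1 (93.8 and 89.5 FPKM in controls against 133.8, 123.2 and 176.8 FPKM in the 3 knockouts) and Fads2 (155.7 and 184.1 FPKM in controls against 248.1, 210.3 and 342.4 FPKM in the 3 knockouts) had groups that did not overlap. Elovl5, a fatty acid elongase, had 49.8 and 63.6 FPKM in controls against 65.9, 113.4 and 138.9 FPKM in the 3 knockouts, with knockout 1 close to control 2. Over this list, 4 genes lay wholly above the controls and none wholly below, beside the same 18.9% and 6.38% of all genes. Scd1, the stearoyl-CoA desaturase, named after its values were seen, was at 152.3 and 424.9 FPKM in controls against 272.2, 1037 and 661 FPKM in the 3 knockouts, and its groups overlapped. The counts of both lists by direction were the same after median-of-ratios scaling and quantile normalization.

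Genes that process or feed into SREBP1 had higher means in 12 of 13 cases (median 0.14), beside 64.2% of all genes higher. None was called and 2 had an unadjusted p below 0.05. The count was 9 of 13 after median-of-ratios scaling and 10 of 13 after quantile normalization, beside 48.5% and 49.4% of all genes. Scap, the escort of SREBP from the endoplasmic reticulum, had 25.5 and 22.8 FPKM in controls against 29.0, 32.3 and 33.1 FPKM in the 3 knockouts. The sister gene Srebf2 had 8.98 and 8.72 FPKM in controls against 12.11, 11.42 and 12.52 FPKM in the 3 knockouts. Insig1, which retains the SCAP-SREBP complex and is itself an SREBP target, had 38.3 and 56.3 FPKM in controls against 85.8, 45.6 and 84.4 FPKM in the 3 knockouts, with knockout 2 between the controls.

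Handling of malonyl-CoA outside the synthase gave 10 of 12 genes higher (median 0.12), among them Acacb and not Acaca, beside 64.2% of all genes. None was called and 2 had an unadjusted p below 0.05. These were Acacb itself and Cpt1a, which was also counted among the fasting genes. The count was 7 of 12 after median-of-ratios scaling and 8 of 12 after quantile normalization, beside 48.5% and 49.4% of all genes. Cpt1a, the liver carnitine palmitoyltransferase that malonyl-CoA inhibits, had 104.9 and 93.9 FPKM in controls against 112.2, 139.7 and 126.8 FPKM in the 3 knockouts (log2 fold change 0.34, SE 0.12, limma adjusted p = 0.70). Hlcs, which attaches biotin to the carboxylases, had 2.55 and 2.41 FPKM in controls against 2.78, 3.84 and 4.05 FPKM in the 3 knockouts. Both were above the controls in all 3 knockouts, as was Acacb. Of the 12 genes, 4 lay wholly above the controls and none wholly below, beside 18.9% and 6.38% of all genes. Acacb is among the 4, so the counts of this list partly repeat its own difference.

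Of 13 insulin signalling genes 8 were higher and 5 lower (median 0.11), beside 64.2% of all genes higher. None was called and 2 had an unadjusted p below 0.05. Those 2 were the glycogen-targeting phosphatase subunits Ppp1r3b (79.5 and 77.9 FPKM in controls against 54.1, 36.7 and 28.5 FPKM in the 3 knockouts) and Ppp1r3c (29.1 and 21.5 FPKM in controls against 11.1, 20.6 and 8.05 FPKM in the 3 knockouts). Akt1 had 23.4 and 19.2 FPKM in controls against 25.3, 26.5 and 24.2 FPKM in the 3 knockouts.

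**Figure D5:**
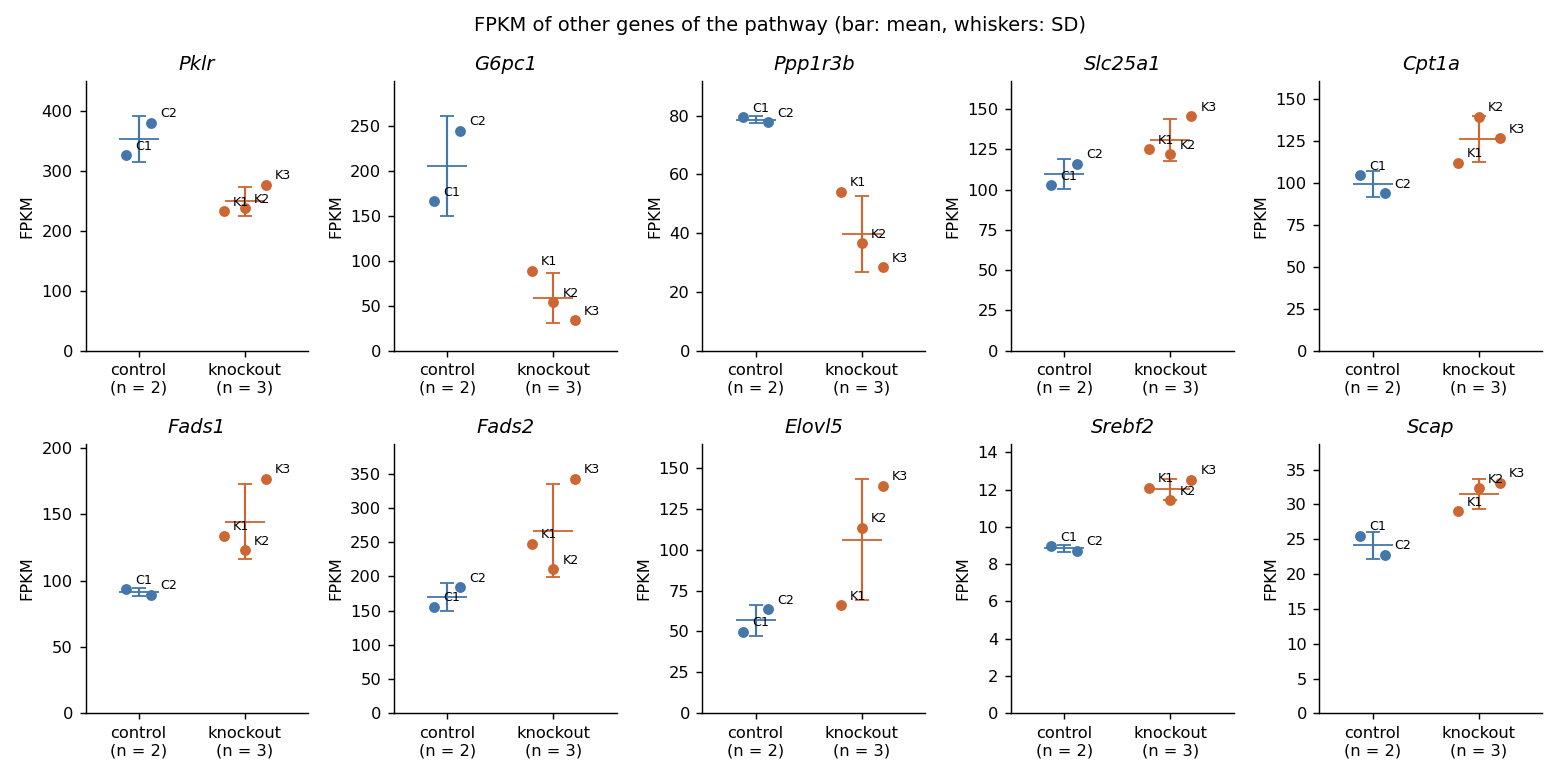
FPKM of 10 other genes of the pathway in each liver, with controls (C1, C2, blue), knockouts (K1 to K3, orange), bars at the group mean and whiskers of 1 SD. The 10 were picked after their values were seen, and all have groups that do not overlap, as do 25.3% of all genes tested. Insig1, whose groups overlap, is not shown. Pklr, G6pc1 and Ppp1r3b are below both controls in all 3 knockouts, and Slc25a1, Cpt1a, Fads1, Fads2, Elovl5, Srebf2 and Scap are above both, with no adjusted p under the threshold for any of them.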

How the data were processed

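Liver RNA of 5 libraries (2 control, 3 knockout, grouped by the labels) was measured by paired-end RNA-seq. The deposited values are FPKM per gene symbol, rounded to 2 decimals, made by the authors. The submitters' processing notes name HISAT2, StringTie, DESeq2 and mm10, with neither versions nor roles. A second deposited table held identical values in all 33589 rows. FPKM are not counts, so log2(FPKM + 1) was tested with limma 3.58.1 in R 4.3.3 (trended prior variance, genotype as the only term, two-sided, Benjamini-Hochberg adjustment, threshold 0.05) on the 10820 genes with a mean of at least 1 FPKM. The test was checked on simulated data. Positions are from GENCODE M21 (GRCm38, the assembly of mm10), upstream sequences from RefSeq on GRCm38.p6. The members and lists were chosen with earlier results of these data known. A gene of the related lists is not reported here. G6pc and Arntl are G6pc1 and Bmal1 in the table. The text names all members, from the related lists among the 3 genes with the smallest p, and the 5 genes of most like profile. Alb, Igfbp1, Mlx, Scd1, the adipocyte markers other than Adrb3, the muscle markers and the ratios were chosen after their values were seen. Alternatives were other pseudocounts (0.1, 0.5), filters (0.1, 5 FPKM or none), scalings, library weights, no variance trend, each library left out, and a replicate block. Rescaling to equal sums was added after seeing the data.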

Additional observations from a re-analysis of the deposited data

How the results depend on the processing

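No member passed the threshold under any of the 16 alternatives, and 140 of 146 values of single members kept their direction. The 6 that did not were those of Acly, at -0.131 with the replicate block, and of values with 1 library left out, which ranged from -0.253 to 0.434 for Acly, from -0.106 to 0.332 for Mlxipl, from -0.560 to 0.0287 for Thrsp and from -0.236 to 0.0434 for Acaca. Other pseudocounts and scalings reversed none of the members. The filters and the setting without a variance trend cannot change a member's log2 fold change. Their values, counted among the 140, were therefore the same by construction. The replicate block gives the members the same log2 fold changes as leaving out knockout 3, so it is no separate check of direction. The median of the members ranged from -0.167 (without control 1) to 0.148 (without knockout 2) and was 0.0125 after median-of-ratios scaling. Over all genes, 0 to 1 were called with 1 library left out, the 1 being Hamp without control 1, and 5 were called with the replicate block, none of them a member. That block rests on a number that the labels share between controls and knockouts 1 and 2, without stating a litter or batch. It leaves knockout 3 without a partner. Deviations from the group means correlated at 0.227 for the livers numbered 1 and at 0.196 for those numbered 2, across genes. The deviations of the 2 controls are exact opposites, so the crossed pairs gave -0.227 and -0.196 by construction. Knockout 3 gave -0.031 with control 1. Deviations of the knockouts also sum to 0, so the correlations depend on each other and are not separate matches by number. Settings with 1 control assume that it varies like the knockouts. The number of livers and the rounding of low FPKM (Pnpla3) limit what could be detected, and without counts no depth-based interval can be given.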
